A study of Mus musculus with 18 samples.

Results

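The D cyclins and the regulators that act with them at the G1 checkpoint were followed as a set of 10 genes across 18 mouse heart libraries. The members are the D cyclins Ccnd1, Ccnd2 and Ccnd3, the kinases Cdk4 and Cdk6, the inhibitors Cdkn1a, Cdkn1b, Cdkn1c and Cdkn2c, and the retinoblastoma gene Rb1. They were chosen by gene symbol from the deposited table of all libraries, and all 10 were found among its 24341 genes. All 10 were at or above 1 FPKM (fragments per kilobase of transcript, scaled to the mapped fragments of each library) in all 18 libraries, so all passed the filter on low values and entered the tests on 12587 genes.

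The study measured polyA RNA from hearts of C57BL/6 mice aged 12 weeks, in 6 groups of 3 libraries, and asked how cardiac transcription depends on thyroid hormone and on Med13. Mice with a cardiac-specific knockout of Med13, which links the Cdk8 kinase to the Mediator complex, are called Med13cKO, and the others are wild type (WT). For each genotype, PTU+T3 mice received a diet with PTU (propylthiouracil, which blocks thyroid hormone synthesis) from 8 weeks of age for 4 weeks and then 3 daily injections of the active hormone T3, PTU mice received the PTU diet for 4 weeks, and chow mice received normal chow. The labels used here give neither the Cre driver of the knockout nor the sex of the mice, and do not say whether libraries stem from different animals. The p-values here therefore rest on the spread between libraries, which may in part be technical.

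The libraries each held 11677 to 12091 genes at or above 1 FPKM, and Pearson correlations between libraries of a group were 0.975 to 0.992. Of the thyroid hormone response genes, Hr rose 4.65 log2 units with T3 against PTU in Med13cKO hearts and 4.81 in WT hearts, and Myh7, the slow myosin heavy chain, fell by 3.46 and 3.99 log2 units in the same comparisons. The knockout was not visible in the level of Med13 itself, which averaged 5.83 ± 0.713 FPKM in Med13cKO hearts and 5.87 ± 0.596 FPKM in WT hearts (SD, n = 9 each). A gene-level value cannot show a small deleted stretch or a deletion limited to some cells of the heart, so this level does not check the genotype labels, and the groups are named by those labels throughout. Cardiomyocyte markers were high in every group, with summed levels of 34384 to 66122 FPKM for 10 genes. The summed level of 9 atrial markers ran from 571 to 10274 FPKM between libraries, within groups as well as between them, so results are also given without the library highest in atrial markers of each group wherever that ends a call.

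D cyclins bind and activate Cdk4 and Cdk6, which phosphorylate the retinoblastoma protein and so release E2F transcription factors to drive entry into S phase. The CIP/KIP inhibitors, encoded by Cdkn1a (p21), Cdkn1b (p27) and Cdkn1c (p57), block cyclin-dependent kinases, and the INK4 inhibitor encoded by Cdkn2c (p18) binds Cdk4 and Cdk6 directly. In the heart this circuit is known for its part in the withdrawal of cardiomyocytes from the cell cycle after birth, and D cyclins have also been linked to the growth of cardiomyocytes without division.

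The sequences before the start of 3 members are shown because their transcripts moved differently: Ccnd3 rose with T3, Cdkn1b fell, and Cdk4 was called in no comparison. RefSeq promoter windows on build GRCm38.p6 were matched by symbol for 6 of the 10 members (Ccnd3, Cdk4, Cdk6, Cdkn1a, Cdkn1b and Cdkn2c, in 9 windows). The 250 bases before a listed start are printed 5′ to 3′ on the gene's strand, for Ccnd3 at chr17:47504801-47505050, for Cdkn1b at chr6:134920151-134920400 and for Cdk4 at chr10:127063285-127063534, all on the plus strand. Capitals mark the hexamer AGGTCA, a unit of the elements that thyroid hormone receptors bind and not a whole element, and the E-box CACGTG, each searched on both strands.
Ccnd3: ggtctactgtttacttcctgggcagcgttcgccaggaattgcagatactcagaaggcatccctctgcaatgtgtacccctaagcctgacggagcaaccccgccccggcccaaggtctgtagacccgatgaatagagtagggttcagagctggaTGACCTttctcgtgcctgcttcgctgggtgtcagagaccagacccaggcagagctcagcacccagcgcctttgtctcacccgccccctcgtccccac
Cdkn1b: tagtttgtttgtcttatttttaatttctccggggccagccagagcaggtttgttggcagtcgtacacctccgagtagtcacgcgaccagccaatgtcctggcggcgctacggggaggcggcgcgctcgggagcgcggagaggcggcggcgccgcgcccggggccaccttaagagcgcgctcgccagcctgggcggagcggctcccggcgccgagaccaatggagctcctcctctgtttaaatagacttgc
Cdk4: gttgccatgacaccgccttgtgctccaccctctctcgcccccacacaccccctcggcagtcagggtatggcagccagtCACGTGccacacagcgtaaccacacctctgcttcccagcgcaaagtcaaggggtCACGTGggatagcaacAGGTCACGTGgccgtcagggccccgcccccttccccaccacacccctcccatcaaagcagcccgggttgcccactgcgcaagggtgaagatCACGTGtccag
The printed Ccnd3 window held 1 AGGTCA, read here on the opposite strand and starting at position -97 from the listed start. The window of a second listed Ccnd3 start, chr17:47593217-47593466, held neither motif. The Cdkn1b window held neither motif. The Cdk4 window held 4 E-boxes and 1 AGGTCA, and that AGGTCA shares its last 2 bases with an E-box. Of the windows not printed, a Cdkn2c window held 1 AGGTCA at position -180, and the Cdk6 window held 1 E-box at position -220. The other Cdkn2c window and the Cdkn1a windows held neither motif. Among 32851 promoter windows of the same length, 14.0% held an AGGTCA, 6.02% held an E-box, and 7 windows (0.0213%) held 4 or more E-boxes. These matches describe the letters in the windows and do not show that a factor binds there.

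Ccnd1, which encodes cyclin D1, had the widest range between group means among the members, 3.85-fold, and followed the hormone state in both genotypes. Ccnd1 lies on the minus strand at chr7:144929931-144939925 (mm10). With T3 it was at 34.7, 36.3 and 36.1 FPKM in Med13cKO libraries and at 33.6, 29.2 and 38.6 FPKM in WT libraries. On PTU it was at 8.33, 13.2 and 9.84 FPKM in Med13cKO libraries and at 11.0, 6.74 and 10.1 FPKM in WT libraries. On chow it was at 15.5, 18.1 and 18.4 FPKM in Med13cKO libraries and at 16.6, 18.5 and 21.0 FPKM in WT libraries. Every PTU library was below every chow library, and every chow library was below every PTU+T3 library, in both genotypes.

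**Figure D1:**
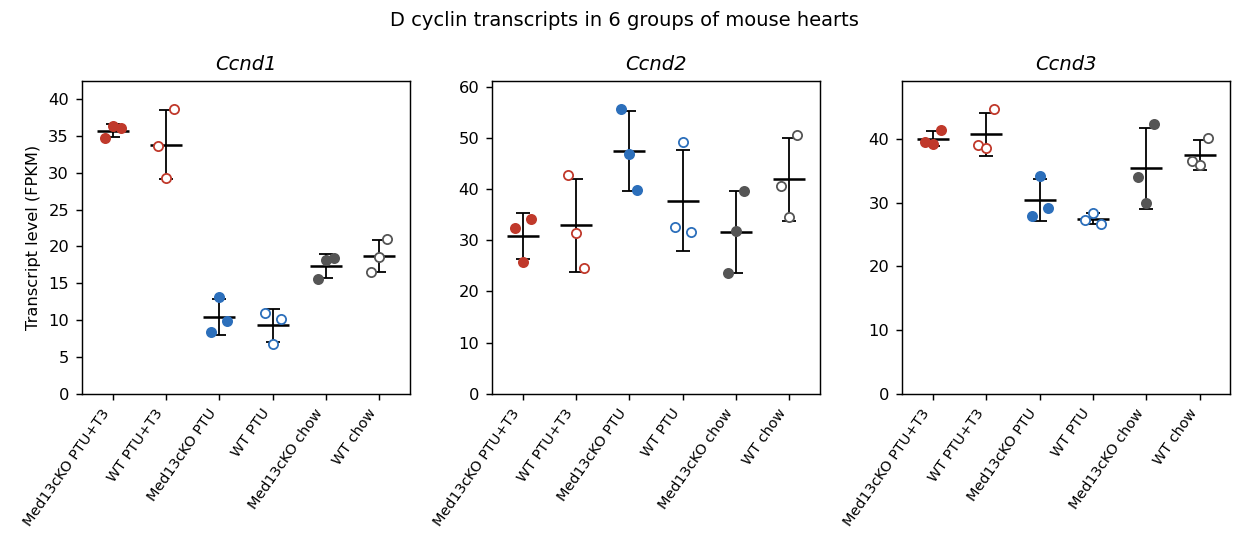
Levels of Ccnd1, Ccnd2 and Ccnd3 (y axis, FPKM, from 0) in each library of the 6 groups (x axis). Points are libraries, filled for Med13cKO and open for WT, with red for PTU+T3, blue for PTU and grey for chow; bars are means and error bars are SD (n = 3). Ccnd1 separates into 3 bands by hormone state, Ccnd3 is lowest on PTU, and Ccnd2 libraries of a group spread widely.

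The Ccnd1 differences were tested with limma on log2(FPKM + 1), with p-values adjusted over all genes tested, and an adjusted p under 0.05 counted as a call. Against PTU alone, T3 raised Ccnd1 by 1.70 log2 units in Med13cKO hearts (SE 0.163, adjusted p 8.19e-07) and by 1.78 in WT hearts (SE 0.163, adjusted p 6.11e-07). Against chow, PTU gave -0.70 in Med13cKO hearts (adjusted p 0.00945) and -0.96 in WT hearts (adjusted p 0.00105). The PTU+T3 level was also above chow, 2.06-fold in Med13cKO hearts (adjusted p 0.00065) and 1.81-fold in WT hearts (adjusted p 0.00423), as ratios of group means. The PTU call in Med13cKO hearts was lost without Med13cKO PTU replicate 1 (adjusted p 0.051).

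Ccnd3, cyclin D3, rose with T3 against PTU, as Ccnd1 did, over a narrower range, and lies on the plus strand at chr17:47505051-47599691. With T3 it was at 39.4, 39.2 and 41.4 FPKM in Med13cKO libraries and at 39.0, 38.5 and 44.6 FPKM in WT libraries. On PTU it was at 27.9, 34.1 and 29.2 FPKM in Med13cKO libraries and at 27.3, 28.4 and 26.6 FPKM in WT libraries. On chow it was at 34.0, 29.9 and 42.3 FPKM in Med13cKO libraries and at 36.5, 35.8 and 40.2 FPKM in WT libraries. The PTU and PTU+T3 libraries did not overlap in either genotype, whereas in Med13cKO hearts the PTU and chow libraries did. T3 raised Ccnd3 against PTU by 0.39 in Med13cKO hearts (SE 0.108, adjusted p 0.00759 in limma) and by 0.55 in WT hearts (SE 0.108, adjusted p 0.000719). PTU against chow gave -0.20 in Med13cKO hearts (95% interval -0.43 to 0.03, adjusted p 0.217) and -0.44 in WT hearts (adjusted p 0.0118). The WT call on PTU was lost without WT chow replicate 3 (adjusted p 0.0509), and the Med13cKO call with T3 was lost after quantile normalization (adjusted p 0.0885).

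Ccnd2, cyclin D2, varied more between libraries of a group than the other D cyclins in most groups, and did not follow Ccnd1. Its levels were 32.4, 25.7 and 34.2 FPKM in Med13cKO PTU+T3 libraries and 42.7, 31.4 and 24.5 FPKM in WT PTU+T3 libraries. They were 55.5, 46.8 and 39.9 FPKM in Med13cKO PTU libraries and 32.5, 49.2 and 31.5 FPKM in WT PTU libraries. They were 23.5, 31.8 and 39.6 FPKM in Med13cKO chow libraries and 40.7, 34.5 and 50.6 FPKM in WT chow libraries. The Med13cKO PTU libraries were all above the Med13cKO PTU+T3 and chow libraries, while the WT groups overlapped. In Med13cKO hearts, T3 against PTU gave -0.61 (SE 0.229, adjusted p 0.0408 in limma), a call that 6 of its alternatives ended, with adjusted p up to 0.148. Among them were leaving out the libraries highest in atrial markers (adjusted p 0.146 in limma), Med13cKO PTU replicate 1 or 2, or Med13cKO PTU+T3 replicate 1 or 2. In WT hearts the same difference was -0.20 (95% interval -0.69 to 0.29). PTU against chow gave 0.58 in Med13cKO hearts (adjusted p 0.096 in limma) and -0.16 in WT hearts (adjusted p 0.676). The Med13cKO difference was called with array weights (adjusted p 0.0306 in limma) and without Med13cKO chow replicate 3 (adjusted p 0.0498).

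Added together, the D cyclins were at 106 ± 5.29 FPKM in Med13cKO PTU+T3 hearts, 107 ± 8.03 in WT PTU+T3 hearts, 88.2 ± 8.18 in Med13cKO PTU hearts, 74.4 ± 8.60 in WT PTU hearts, 84.4 ± 14.2 in Med13cKO chow hearts and 98.1 ± 12.1 in WT chow hearts (SD, n = 3 each). FPKM is a value per length, so members can be set side by side. Ccnd1 made up 33.6 ± 1.98% of that sum in Med13cKO PTU+T3 hearts and 31.5 ± 3.77% in WT PTU+T3 hearts, 11.8 ± 2.52% in Med13cKO PTU hearts and 12.8 ± 4.15% in WT PTU hearts, and 20.8 ± 2.24% in Med13cKO chow hearts and 19.1 ± 1.59% in WT chow hearts. Ccnd2 made up 28.8 ± 2.96% in Med13cKO PTU+T3 hearts and 30.5 ± 7.22% in WT PTU+T3 hearts, 53.6 ± 6.02% in Med13cKO PTU hearts and 50.1 ± 7.09% in WT PTU hearts, and 37.2 ± 4.30% in Med13cKO chow hearts and 42.5 ± 3.30% in WT chow hearts. The share of Ccnd3 lay between 34.6 and 42.0% in all 6 group means. These shares are descriptions and were given no test.

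Cdk4, a kinase that D cyclins activate, was the most abundant member, with a median of 44.9 FPKM over 18 libraries, and was called in no comparison. It lies on the plus strand at chr10:127063534-127067920. Its levels were 42.9, 46.4 and 45.7 FPKM in Med13cKO PTU+T3 libraries and 39.0, 44.4 and 45.2 FPKM in WT PTU+T3 libraries. They were 44.5, 48.4 and 46.6 FPKM in Med13cKO PTU libraries and 45.7, 45.7 and 45.6 FPKM in WT PTU libraries. They were 44.2, 46.0 and 44.6 FPKM in Med13cKO chow libraries and 39.9, 39.2 and 44.5 FPKM in WT chow libraries. The whole range was 1.24-fold. For T3 against PTU the 95% interval of the log2 difference was -0.20 to 0.11 in Med13cKO hearts and -0.25 to 0.06 in WT hearts. Quantile normalization gave a call in Med13cKO hearts, at -0.21 (adjusted p 0.029 in limma).

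Cdk6, the other kinase that D cyclins activate, was the least abundant member, at 1.01 to 3.01 FPKM. Its group means were 1.58 ± 0.222 FPKM in Med13cKO PTU+T3 hearts, 1.81 ± 0.750 in WT PTU+T3 hearts, 2.30 ± 0.646 in Med13cKO PTU hearts, 2.23 ± 0.671 in WT PTU hearts, 1.76 ± 0.188 in Med13cKO chow hearts and 2.25 ± 0.189 in WT chow hearts (SD, n = 3 each). No treatment comparison called Cdk6, and its fold changes are understated at this level because 1 FPKM was added before taking logs. The level of Cdk4 was 18.3 to 28.7 times that of Cdk6 in the 6 group means.

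**Figure D2:**
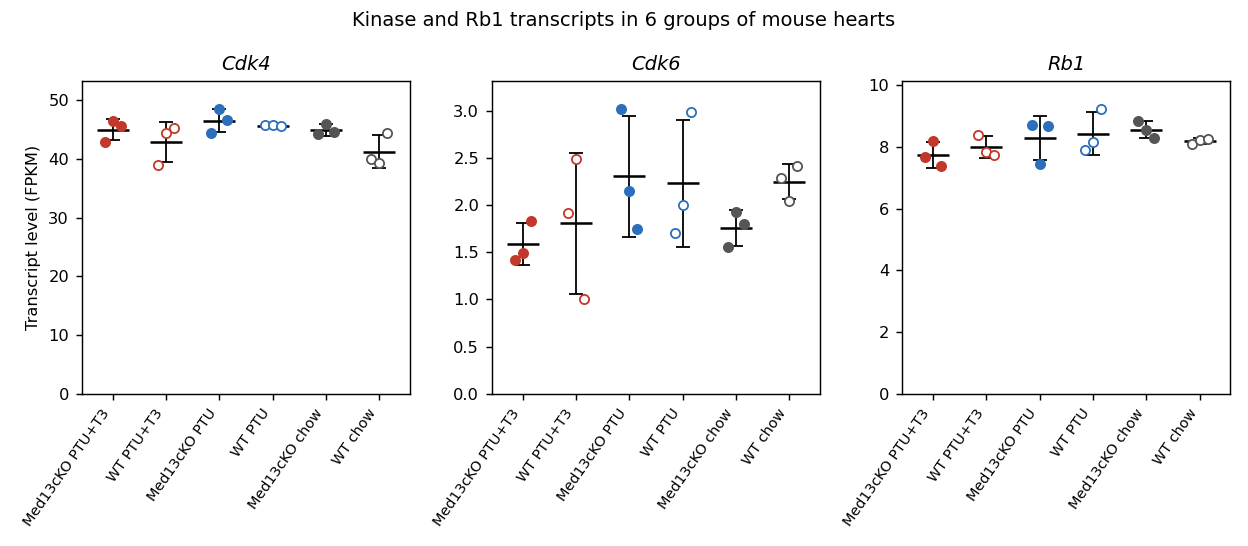
Levels of Cdk4, Cdk6 and Rb1 (y axis, FPKM, from 0) in each library of the 6 groups (x axis), with points as libraries, bars as means and error bars as SD (n = 3); filled points are Med13cKO and open points are WT. Cdk4 and Rb1 stay nearly level across groups, with whole ranges of 1.24-fold and 1.25-fold, and Cdk6 lies at 1.01 to 3.01 FPKM.

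Cdkn1b, the p27 inhibitor, fell with T3 in both genotypes, opposite to Ccnd1. It lies on the plus strand at chr6:134920401-134925513, and no annotated exon of another gene overlaps it. With T3 it was at 9.90, 9.74 and 9.65 FPKM in Med13cKO libraries and at 12.2, 9.36 and 10.2 FPKM in WT libraries. On PTU it was at 17.1, 15.4 and 17.2 FPKM in Med13cKO libraries and at 18.8, 17.8 and 20.9 FPKM in WT libraries. On chow it was at 13.7, 14.4 and 14.7 FPKM in Med13cKO libraries and at 15.0, 13.0 and 12.8 FPKM in WT libraries. Within each genotype the 3 treatments did not overlap, with PTU+T3 lowest and PTU highest.

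Against PTU alone, T3 gave -0.70 log2 units for Cdkn1b in Med13cKO hearts (SE 0.0913, adjusted p 1.42e-05 in limma) and -0.81 in WT hearts (SE 0.0913, adjusted p 4.8e-06). Against chow, PTU+T3 gave -0.50 in Med13cKO hearts (adjusted p 0.00137) and -0.34 in WT hearts (adjusted p 0.0202). PTU against chow gave 0.20 in Med13cKO hearts (95% interval 0.01 to 0.40, adjusted p 0.145) and 0.47 in WT hearts (adjusted p 0.0028). In WT hearts the call of PTU against chow was lost without the libraries highest in atrial markers (adjusted p 0.0674). The call of PTU+T3 against chow in WT hearts was lost under 5 alternatives. Its adjusted p was highest without the libraries highest in atrial markers (0.137), and the others include leaving out WT chow replicate 1 or WT PTU+T3 replicate 2 or 3.

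The ratio of Cdkn1b to Ccnd1 FPKM was 0.274 ± 0.0102 in Med13cKO PTU+T3 hearts and 0.315 ± 0.0493 in WT PTU+T3 hearts, 1.66 ± 0.450 in Med13cKO PTU hearts and 2.14 ± 0.470 in WT PTU hearts, and 0.824 ± 0.0493 in Med13cKO chow hearts and 0.740 ± 0.151 in WT chow hearts (SD, n = 3 each). Cdkn1b transcript thus exceeded Ccnd1 transcript on PTU and was below it in the other groups. Across the 18 libraries, which share the 6 group differences, Pearson's r of the log2 levels was -0.93 between Ccnd1 and Cdkn1b, 0.86 between Ccnd1 and Ccnd3, and -0.84 between Ccnd3 and Cdkn1b. For the other 42 of the 45 pairs of members it was between -0.54 and 0.62.

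**Figure D3:**
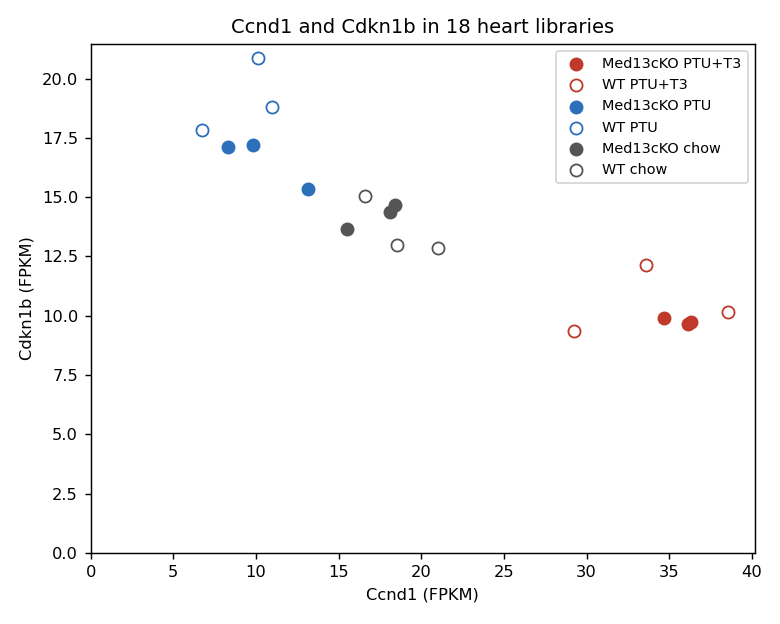
Level of Cdkn1b (y axis, FPKM) against level of Ccnd1 (x axis, FPKM) in each of the 18 libraries, both axes from 0; filled points are Med13cKO and open points are WT, with red for PTU+T3, blue for PTU and grey for chow. The PTU libraries lie at low Ccnd1 and high Cdkn1b, the chow libraries in the middle, and the PTU+T3 libraries at high Ccnd1 and low Cdkn1b.

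Cdkn1c, the p57 inhibitor and an imprinted gene, fell on PTU against chow and rose with T3 against PTU, as Ccnd1 did. Its levels were 14.2, 12.7 and 12.7 FPKM in Med13cKO PTU+T3 libraries and 12.8, 9.88 and 15.7 FPKM in WT PTU+T3 libraries. They were 7.94, 7.34 and 10.1 FPKM in Med13cKO PTU libraries and 7.62, 9.78 and 8.14 FPKM in WT PTU libraries. They were 15.3, 16.8 and 16.0 FPKM in Med13cKO chow libraries and 11.9, 16.0 and 13.0 FPKM in WT chow libraries. The PTU libraries were the lowest in both genotypes, with no overlap with chow or PTU+T3. PTU against chow gave -0.86 in Med13cKO hearts (SE 0.146, adjusted p 0.00126 in limma) and -0.62 in WT hearts (SE 0.146, adjusted p 0.00916). T3 against PTU gave 0.59 in Med13cKO hearts (adjusted p 0.00355) and 0.52 in WT hearts (adjusted p 0.0093). Unlike Ccnd1, Cdkn1c was not above chow with T3. PTU+T3 against chow gave -0.26 in Med13cKO hearts (adjusted p 0.223 in limma) and -0.10 in WT hearts (adjusted p 0.701). In Med13cKO hearts the PTU+T3 libraries were all below the chow libraries, and only the compared groups gave a call (adjusted p 0.0493 in limma). Without the libraries highest in atrial markers, the WT calls were lost for PTU against chow (adjusted p 0.066) and for T3 against PTU (adjusted p 0.203). The WT call of T3 against PTU was also lost without WT PTU+T3 replicate 3 (adjusted p 0.057).

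Cdkn1a, the p21 inhibitor and a known target of p53, had the highest coefficient of variation of any member within a group, 60.6% in Med13cKO chow hearts. Its levels were 17.6, 37.8 and 36.2 FPKM in Med13cKO PTU+T3 libraries and 45.2, 25.5 and 29.9 FPKM in WT PTU+T3 libraries. They were 29.4, 36.0 and 28.1 FPKM in Med13cKO PTU libraries and 17.8, 37.9 and 23.8 FPKM in WT PTU libraries. They were 10.7, 10.7 and 27.9 FPKM in Med13cKO chow libraries and 30.5, 16.5 and 28.8 FPKM in WT chow libraries. The Med13cKO PTU libraries lay above the Med13cKO chow libraries by a narrow margin, and all other pairs of groups compared overlapped. No comparison called Cdkn1a. PTU against chow in Med13cKO hearts gave 1.02 (SE 0.392, adjusted p 0.0922 in limma), and without Med13cKO chow replicate 3 it gave 1.46 (adjusted p 0.0167). PTU+T3 against chow in Med13cKO hearts gave 0.93 (adjusted p 0.111), and without the same library it gave 1.36 (adjusted p 0.025). That difference was also called with array weights (1.07, adjusted p 0.0437 in limma) and without Med13cKO PTU+T3 replicate 1 (1.27, adjusted p 0.0493).

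Cdkn2c, the INK4 inhibitor p18, was at 7.73 to 12.1 FPKM. Its group means were 8.14 ± 0.468 FPKM in Med13cKO PTU+T3 hearts, 10.2 ± 0.964 in WT PTU+T3 hearts, 10.4 ± 1.42 in Med13cKO PTU hearts, 10.6 ± 0.525 in WT PTU hearts, 9.90 ± 1.98 in Med13cKO chow hearts and 9.48 ± 1.27 in WT chow hearts (SD, n = 3 each). T3 against PTU gave -0.31 in Med13cKO hearts (SE 0.124, adjusted p 0.0499 in limma), which 8 alternatives took past the threshold, with adjusted p up to 0.207. Among them were leaving out the libraries highest in atrial markers (adjusted p 0.162 in limma), Med13cKO PTU replicate 2 or 3, or any of the 3 Med13cKO PTU+T3 replicates. In WT hearts the same difference was -0.05 (95% interval -0.31 to 0.22).

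**Figure D4:**
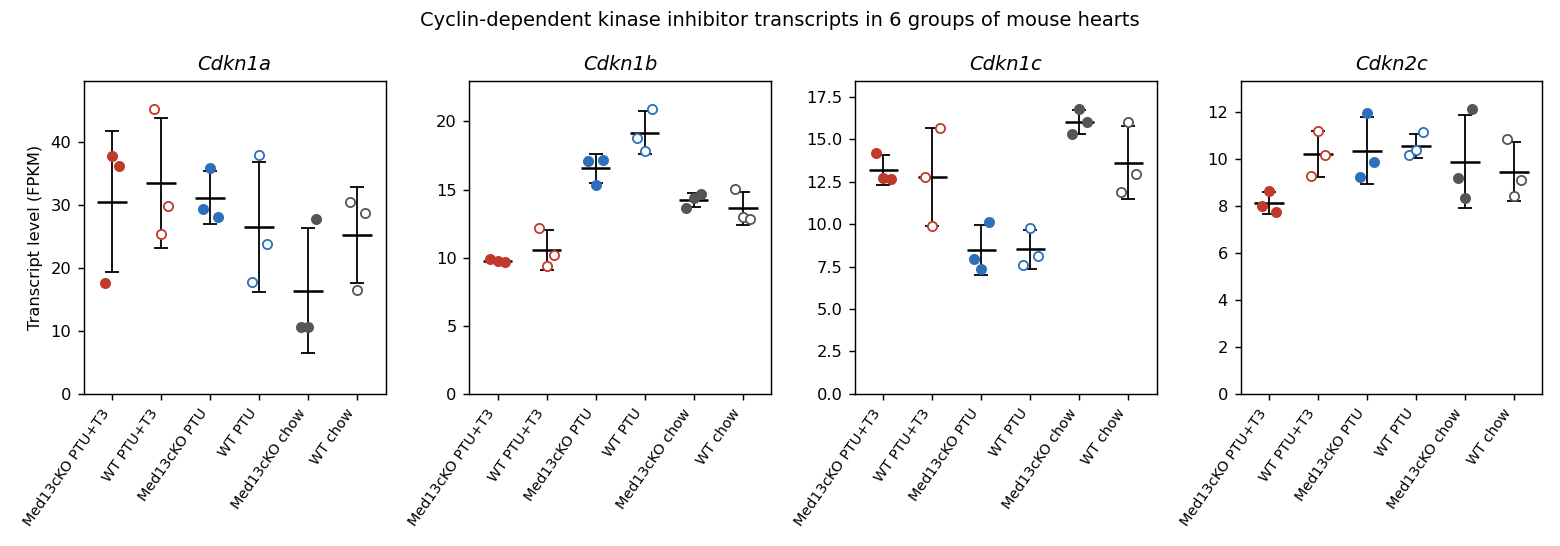
Levels of Cdkn1a, Cdkn1b, Cdkn1c and Cdkn2c (y axis, FPKM, from 0) in each library of the 6 groups (x axis), with points as libraries, bars as means and error bars as SD (n = 3); filled points are Med13cKO and open points are WT. Cdkn1b is highest on PTU, Cdkn1c is lowest on PTU, and Cdkn1a libraries range from 10.7 to 45.2 FPKM.

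Rb1, whose product the D cyclin kinases phosphorylate, was nearly level, with group means of 7.74 ± 0.413 FPKM in Med13cKO PTU+T3 hearts, 8.00 ± 0.354 in WT PTU+T3 hearts, 8.29 ± 0.720 in Med13cKO PTU hearts, 8.44 ± 0.693 in WT PTU hearts, 8.57 ± 0.282 in Med13cKO chow hearts and 8.20 ± 0.0909 in WT chow hearts (SD, n = 3 each). No comparison called it. The 95% interval of T3 against PTU was -0.25 to 0.07 in Med13cKO hearts and -0.23 to 0.09 in WT hearts.

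Counted over the set, T3 against PTU called 6 of 10 members in Med13cKO hearts, where 46.7% of all genes tested were called, and 4 of 10 in WT hearts, where 44.1% were called. Ccnd1, Ccnd3 and Cdkn1c rose and Cdkn1b fell in both genotypes, and Ccnd2 and Cdkn2c fell in Med13cKO hearts. These shares are near those of all genes. PTU against chow called 2 of 10 in Med13cKO hearts (16.0% of all genes), Ccnd1 and Cdkn1c, both lower, and 4 of 10 in WT hearts (16.8%), with Ccnd1, Ccnd3 and Cdkn1c lower and Cdkn1b higher. PTU+T3 against chow called 2 of 10 in Med13cKO hearts (20.9%) and 2 of 10 in WT hearts (14.7%), in both cases Ccnd1 higher and Cdkn1b lower. Comparisons that share the PTU or the chow libraries are not independent of each other. By direction, 24.9% of all genes were higher and 21.8% lower with T3 against PTU in Med13cKO hearts, and 22.3% higher and 21.8% lower in WT hearts. With PTU against chow, 6.44% were higher and 9.59% lower in Med13cKO hearts, and 8.02% higher and 8.76% lower in WT hearts. With PTU+T3 against chow, 11.7% were higher and 9.15% lower in Med13cKO hearts, and in WT hearts 7.68% were higher and 881 of the 12587 genes lower. Groups did not overlap for 6 members in Med13cKO hearts (55.4% of all genes) and 5 in WT hearts (50.7%) with T3 against PTU. They did not overlap for 5 members in each genotype with PTU against chow (32.4% of all genes in Med13cKO hearts and 35.6% in WT hearts), and for 4 members in Med13cKO hearts (41.7%) and 2 in WT hearts (31.4%) with PTU+T3 against chow. The median log2 difference of the members for T3 against PTU was -0.09 in Med13cKO hearts and -0.06 in WT hearts, and 0.00 over all genes in both.

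**Figure D5:**
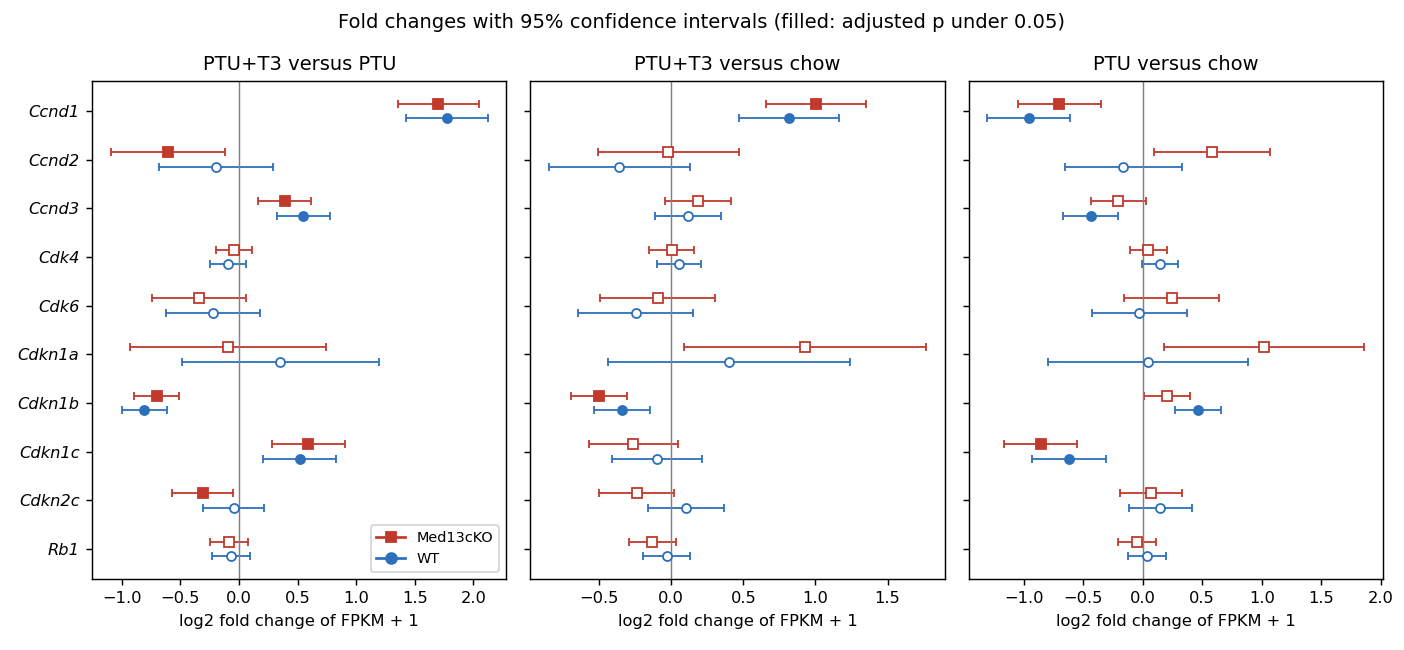
Log2 fold change of FPKM + 1 (x axis) for the 10 members (y axis) in 3 treatment comparisons, with red squares for Med13cKO above blue circles for WT; points are limma estimates, error bars are 95% confidence intervals, and filled points have an adjusted p under 0.05. Ccnd1 has the largest positive changes with T3 against PTU (1.70 in Med13cKO and 1.78 in WT), Cdkn1b the largest negative ones (-0.70 and -0.81), and Cdk4 and Rb1 stay near 0.

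The genotype comparisons called 0 of 10 members at each treatment in limma, and 0.00% of all genes tested. At an unadjusted p under 0.05, 0 members passed on chow, 1 on PTU (Cdkn1b, -0.20 log2 units) and 1 with T3 (Cdkn2c, -0.30), against 394, 491 and 434 of 12587 genes in the same comparisons. Groups did not overlap for 2 members on chow (Cdk6 lower and Rb1 higher in Med13cKO), where 8.51% of all genes did not overlap, for 1 on PTU (Cdkn1b, 7.52%) and for 1 with T3 (Cdkn2c, 8.54%). For Ccnd1 the Med13cKO minus WT difference had 95% intervals of -0.45 to 0.25 on chow, -0.19 to 0.50 on PTU and -0.26 to 0.43 with T3.

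The authors' deposited tables of pairwise comparisons marked 1 member as significant between genotypes on chow and 0 on PTU and with T3. That member was Cdkn1a, with group values in the authors' deposited table of 16.4 FPKM in Med13cKO chow hearts and 25.2 FPKM in WT chow hearts and a q-value of 0.00987. In limma the same difference was -0.69 (SE 0.392, adjusted p 0.999), with Med13cKO libraries at 10.7, 10.7 and 27.9 FPKM overlapping WT libraries at 30.5, 16.5 and 28.8 FPKM. Of the treatment comparisons in WT hearts, the authors' deposited tables marked 4 members for T3 against PTU, 1 for PTU+T3 against chow and 3 for PTU against chow. The limma calls without such a mark were Cdkn1b for PTU+T3 against chow (q-value 0.132 in the authors' deposited table) and Ccnd3 for PTU against chow (q-value 0.0582 there).

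Whether the genotypes responded differently was tested with interaction terms, the Med13cKO difference minus the WT difference. None of the 10 members was called for T3 against PTU or for PTU against chow in limma, nor was any gene tested (0.00%). At an unadjusted p under 0.05, 0 members passed for T3 and 1 for PTU, against 821 and 805 of all genes. That member was Ccnd2, where PTU against chow gave 0.58 in Med13cKO hearts and -0.16 in WT hearts, a difference of 0.75 (95% interval 0.06 to 1.44, adjusted p 0.764). For Ccnd1 the interaction was -0.07 for T3 (95% interval -0.56 to 0.42) and 0.26 for PTU (95% interval -0.23 to 0.75).

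Genes downstream of E2F were described from a list of 26 E2F targets of S phase and mitosis, 23 of which were tested. Whether their levels depend on those of the D cyclins was not tested. T3 against PTU raised 17 list genes in Med13cKO hearts (24.9% of all genes) and 18 in WT hearts (22.3%). It called 0 of them lower, with a median log2 difference of 0.69 and 0.84. Against chow, PTU+T3 raised 14 in Med13cKO hearts (11.7% of all genes) and 16 in WT hearts (7.68%). Some list genes passed the filter only through PTU+T3 libraries. Aurkb, for instance, was at 1.46 FPKM or more in those libraries and at most 0.862 FPKM in the others. The counts of raised genes are therefore in part set by the filter, and the list was chosen with earlier results of these data known. Mcm5, a subunit of the replicative helicase, was at 4.42 ± 0.631 FPKM in Med13cKO PTU+T3 hearts and 4.61 ± 0.657 in WT PTU+T3 hearts, 1.21 ± 0.358 in Med13cKO PTU hearts and 0.948 ± 0.347 in WT PTU hearts, and 1.58 ± 0.338 in Med13cKO chow hearts and 1.65 ± 0.0928 in WT chow hearts (SD, n = 3 each). Ung, the uracil DNA glycosylase, had the lowest adjusted p of the list in Med13cKO hearts, with a rise of 2.69 log2 units for T3 against PTU (adjusted p 4.13e-06 in limma). PTU against chow lowered 1 list gene in Med13cKO hearts (Ung, 9.59% of all genes lower) and 2 in WT hearts (Ung and Mcm5, 8.76%). The summed level of the list was 130 to 158 FPKM in Med13cKO PTU+T3 libraries, 131 to 151 in WT PTU+T3 libraries, 68.0 to 86.9 in Med13cKO PTU libraries, 71.8 to 84.8 in WT PTU libraries, 87.5 to 99.1 in Med13cKO chow libraries and 86.3 to 89.3 in WT chow libraries. Pcna (group means of 34.5 to 50.3 FPKM) and Ung (2.20 to 19.6 FPKM) weighed heavily in this sum. The median log2 difference of the list for PTU against chow was 0.01 in Med13cKO hearts and -0.22 in WT hearts.

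Of 37 other genes of the step from G1 to S phase, 31 were tested. T3 against PTU raised 9 and lowered 9 in Med13cKO hearts, and raised 10 and lowered 7 in WT hearts. Of all genes, 24.9% were higher and 21.8% lower in Med13cKO hearts, and 22.3% higher and 21.8% lower in WT hearts. The counts of the list were not tested against these shares. E2f6, a repressor of the E2F family, was at 61.6 ± 5.22 FPKM in Med13cKO PTU+T3 hearts and 57.2 ± 6.82 in WT PTU+T3 hearts, against 32.3 ± 1.66 in Med13cKO PTU hearts and 33.4 ± 3.57 in WT PTU hearts (SD, n = 3 each). E2f1, an activator of the family, rose by 1.02 in Med13cKO hearts and by 1.09 in WT hearts. It was at most 0.894 FPKM in PTU libraries and 0.785 FPKM in chow libraries, and at least 1.20 FPKM with T3. The filter thus let E2f1 in only through its level with T3, so no p-value is given for it, and the counts above include it. Fbxw7, the ubiquitin ligase subunit that targets cyclin E, fell by 0.59 in Med13cKO hearts and by 0.97 in WT hearts with T3. The INK4 inhibitor Cdkn2d fell by 0.72 in Med13cKO hearts and by 0.35 in WT hearts with T3 against PTU.

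A further pair of lists holds genes that share a known regulator with an inhibitor. Whether these regulators act on Cdkn1b or Cdkn1a here was not tested. With T3 against PTU, 24.9% of all genes were higher and 21.8% lower in Med13cKO hearts. In WT hearts 22.3% were higher and 21.8% lower. Of 14 FoxO targets other than Cdkn1b, all tested, T3 against PTU raised 3 and lowered 7 in Med13cKO hearts and raised 1 and lowered 10 in WT hearts. Ddit4, an inhibitor of mTOR signalling, fell by 1.32 in Med13cKO hearts and by 1.36 in WT hearts, and Pdk4, a kinase that restrains pyruvate oxidation, rose by 2.75 and 2.45. Of 15 tested p53 targets other than Cdkn1a (16 listed), T3 against PTU raised 4 and lowered 6 in Med13cKO hearts and raised 5 and lowered 2 in WT hearts. Mdm2, the ubiquitin ligase of p53, rose by 0.93 in Med13cKO hearts and by 0.89 in WT hearts, and Perp fell by 1.43 and 1.26.

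Markers of other cells were described in the same comparisons, beside the shares of all genes. With T3 against PTU, 24.9% of all genes were higher and 21.8% lower in Med13cKO hearts. In WT hearts 22.3% were higher and 21.8% lower. With PTU against chow, 9.59% of all genes were lower in Med13cKO hearts and 8.76% in WT hearts. In whole hearts, fewer cells of a type and less RNA per cell cannot be told apart. Of 12 macrophage markers, T3 against PTU raised 7 in Med13cKO hearts and 9 in WT hearts, and PTU against chow lowered 0 in Med13cKO hearts and 6 in WT hearts. Their summed level was 371 to 436 FPKM in Med13cKO PTU+T3 libraries, 384 to 497 in WT PTU+T3 libraries, 137 to 351 in Med13cKO PTU libraries, 125 to 201 in WT PTU libraries, 283 to 344 in Med13cKO chow libraries and 237 to 410 in WT chow libraries. Of 10 pericyte and smooth muscle markers, T3 against PTU raised 1 (Acta2) and lowered 2 in each genotype, and their summed level was 508 to 643 FPKM in Med13cKO PTU+T3 libraries, 609 to 844 in WT PTU+T3 libraries, 332 to 397 in Med13cKO PTU libraries, 323 to 343 in WT PTU libraries, 448 to 536 in Med13cKO chow libraries and 453 to 532 in WT chow libraries. The median log2 difference of these markers for T3 against PTU was -0.21 in Med13cKO hearts and -0.15 in WT hearts, so the sum does not show a rise across the list. Of 12 endothelial markers, T3 against PTU raised 3 and lowered 1 in Med13cKO hearts and raised 2 and lowered 1 in WT hearts, and the summed level was 412 to 549 FPKM over all 18 libraries. Of 10 fibroblast markers, T3 against PTU raised 0 and lowered 1 (Tcf21) in Med13cKO hearts and called 0 in WT hearts in limma, and the summed level was 635 to 2029 FPKM over all libraries. In the macrophage, pericyte, endothelial and fibroblast lists, no marker was at the floor of the table in all libraries of a group. The 8 lymphocyte markers were all under the filter and summed to 1.19 to 11.2 FPKM. Of 5 tested erythroid markers (6 listed), PTU against chow lowered 3 in Med13cKO hearts (Alas2, Hba-a1 and Hbb-bt) and called 0 in WT hearts in limma, and T3 against PTU raised 1 (Alas2) in Med13cKO hearts and called 0 in WT hearts. The summed level of all 6 was 642 to 1108 FPKM in Med13cKO PTU+T3 libraries, 769 to 1138 in WT PTU+T3 libraries (with Hbb-bs at the floor), 343 to 858 in Med13cKO PTU libraries, 573 to 1350 in WT PTU libraries, 1107 to 1923 in Med13cKO chow libraries and 1109 to 1379 in WT chow libraries. Of 10 cardiomyocyte markers, T3 against PTU raised 5 and lowered 0 in Med13cKO hearts, and raised 3 and lowered 4 in WT hearts. The part of these cells in the levels of Ccnd1, Ccnd3, Cdkn1b, Cdkn1c and the E2F targets was not tested.

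By Pearson's r of log2(FPKM + 1) over the 18 libraries, the genes most like Ccnd1 were Ptger1 (0.98), Psmd14 (0.98) and Rangap1 (0.98). Those most like Cdkn1b were Nub1 (0.98), Rasd2 (0.97) and Cdkl1 (0.97), and those most like Cdkn1c were Angptl4 (0.95), Myct1 (0.93) and Lims2 (0.91). For Ccnd3 they were Atp1b3 (0.93), Cox19 (0.93) and Glrx (0.92). The best match was lower for Ccnd2 (Bend4, 0.89), Cdk6 (Ttpal, 0.89), Rb1 (Hmgn5, 0.81), Cdkn1a (Igf2bp2, 0.80), Cdk4 (Shisa4, 0.77) and Cdkn2c (Pip5k1a, 0.76). The libraries share the 6 groups, so such likeness describes a pattern over treatments.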

How the data were processed

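PolyA RNA of 18 heart libraries was prepared with the TruSeq v2 kit, which does not mark strand, per the labels' protocols. The deposited FPKM values, 1 per gene and library, were made by the authors with Bowtie2 and Cufflinks on mm10, per the submitters' processing notes; versions, annotation and strand use are not given in the sources used here. Pairwise tables deposited by the authors give group FPKM, p-values and q-values. FPKM hold no counts, so absolute depth is unknown; low genes gave relative depths within 1.53-fold, as a rough estimate, and no counting interval is given.

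Groups follow the labels. Genes reaching 1 FPKM in 3 or more libraries entered the tests on log2(FPKM + 1), which understates changes of low genes, with limma 3.58.1 (R 4.3.3; trend and robust, 6 group means, two-sided, Benjamini-Hochberg over 12587 genes in each of 11 comparisons). The procedure was tested on simulated data. Named were all members, up to 4 called genes of each list per comparison, and the 3 genes most like each member. The members and lists were chosen with earlier results of these data known. Alternatives were another pseudocount (0.1), no filter, quantile normalization, only the compared groups, array weights, leaving out each library, and leaving out the library highest in atrial markers of each group. Positions are from GENCODE on GRCm38 (mm10), sequences from RefSeq. Replicates were numbered in accession order.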

Additional observations from a re-analysis of the deposited data

How the results depend on the processing

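No direction of a called member difference reversed under any alternative run. Of 1440 alternative tests of single members, 1405 stayed on the same side of the threshold with the same direction if called, 26 lost a call and 9 gained a call. The number of members called for PTU against chow in WT hearts was 4, and 2 without the library highest in atrial markers of each group. In Med13cKO hearts it was 2, and 1 to 4 when single libraries were left out (1 without Med13cKO PTU replicate 1, 4 without Med13cKO chow replicate 3). For PTU+T3 against chow in Med13cKO hearts it was 2, and 2 to 4 when single libraries were left out (4 without Med13cKO chow replicate 3). In WT hearts it was 2, and 1 with only the compared groups, 1 without the libraries highest in atrial markers, and 1 to 2 when single libraries were left out (1 without WT chow replicate 1 or WT PTU+T3 replicate 2 or 3). The cause was not tested. Over all genes tested, calls for PTU against chow were 2017 in Med13cKO hearts (955 to 2653 under the alternatives) and 2111 in WT hearts (920 to 3438). Calls for PTU+T3 against chow were 2629 in Med13cKO hearts (960 to 3487) and 1848 in WT hearts (723 to 1974). Genotype comparisons called 0 genes, with up to 2 on chow, 4 on PTU and 1 with T3 under the alternatives, and the interactions 0, with up to 3 for PTU and 1 for T3. No paired analysis was possible because the labels give no replicate numbers shared between groups. With 3 libraries in a group and no counts, small changes of Cdk6 and Cdkn1a are not detectable here.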

Other observations

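The kit does not mark strand, and several members share exon bases with a gene on the opposite strand, where reads of the partners cannot be told apart. These genes were taken from the annotation by position. Tspan31, which shares 641 exon bases with Cdk4, averaged 51.9 FPKM in Med13cKO PTU+T3 hearts and 52.4 in WT PTU+T3 hearts, against 35.9 in Med13cKO PTU hearts and 34.9 in WT PTU hearts. Its log2 difference for T3 against PTU was 0.52 in Med13cKO hearts (adjusted p 3.23e-05 in limma) and 0.57 in WT hearts (adjusted p 1.74e-05), while Cdk4 gave -0.05 and -0.09.

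The gene that shares 1100 exon bases with Ccnd1, listed as Oraov1 in the table, rose by 0.51 in Med13cKO hearts and by 0.30 in WT hearts with T3 against PTU, and ranged from 10.2 to 15.9 FPKM. Bysl, a ribosome biogenesis gene that shares 361 exon bases with Ccnd3, averaged 14.9 FPKM in Med13cKO PTU+T3 hearts and 14.3 in WT PTU+T3 hearts, against 9.34 in Med13cKO PTU hearts and 9.40 in WT PTU hearts. Cdkn1c shares 625 of its 2039 exon bases with Gm44732, for which no level was matched. Ccnd2 shares 372 exon bases with Gm43126, for which no level was matched, and 368 with 9330179D12Rik. The level of 9330179D12Rik was only 0.269 to 2.56 FPKM, and it fell by 0.51 in Med13cKO hearts and by 0.54 in WT hearts with T3 against PTU. Rb1 shares 488 with Rcbtb2, which rose by 0.28 and 0.26. It also shares 408 with Lpar6, for which the same difference was 0.25 in Med13cKO hearts and 0.17 in WT hearts. Cdk6 and Cdkn1a also share exon bases with genes for which no level was matched. The part of shared reads in the levels of these members was not tested. Cdkn1b and Cdkn2c share no exon bases with another annotated gene.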
